A study of Mus musculus with 30 samples.

Results

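Among 10 genes of steroid synthesis and of Leydig cells in young mouse testes, Hsd17b1 and Hsd17b3, which finish testosterone in the fetal testis, fell between 8 and 16 days post partum (dpp), and Hsd3b6, an enzyme of adult Leydig cells, rose. The 10 were Hsd17b1, Hsd17b3, Hsd3b1, Hsd3b6, Cyp11a1, Cyp17a1, Cyp19a1, Star, Lhcgr and Insl3. They were taken by name, not by their values, and were 10 of the 65534 rows of the deposited expression table. Each symbol matched 1 row. The libraries were made from polyadenylated RNA of cells labelled as germ cells enriched from testes of male C57BL/6J mice carrying less than 10% 129S1/SvImJ. All mice carried some combination of wild-type and mutant alleles of Prdm9, which encodes the methyltransferase that marks sites of meiotic recombination. At 8 dpp there were 3 Prdm9+/+, 2 Prdm9+/- and 5 Prdm9-/- libraries, at 12 dpp there were 1, 4 and 5, and at 16 dpp there were 2, 3 and 5. Prdm9-/- animals are called mutants below, and Prdm9+/+ and Prdm9+/- animals together non-mutants. The labels record tubules digested with Liberase and washed to remove interstitial cells, so Leydig cells were not the intended population. The header of the table names its column codes as genotype, age, litter and a unique number, and by these codes the libraries came from 14 litters, each sampled at 1 age.

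Steroid synthesis in the testis starts when STAR moves cholesterol into the mitochondrion, where CYP11A1 cuts its side chain. The HSD3B enzymes and CYP17A1 then make androstenedione, which a 17-beta-hydroxysteroid dehydrogenase (HSD17B) reduces to testosterone. In the mouse, fetal Leydig cells stop at androstenedione and fetal Sertoli cells, which express Hsd17b1 and Hsd17b3, finish the hormone, whereas adult Leydig cells carry out every step and express Hsd3b6 beside Hsd3b1. LHCGR is the receptor through which luteinizing hormone drives Leydig cells, INSL3 is a peptide hormone that they secrete, and CYP19A1 turns androgen into estrogen.

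Values are TPM, a share of all transcripts scaled for transcript length, so levels of different genes may be set beside each other. Before the results, 3 facts about the libraries bear on them. Every member except Cyp19a1 was above 0 in all 30 libraries, although the labels record a wash to remove interstitial cells. Prdm9 itself ranged over 6.89–12.8 TPM in mutants and 19.7–34.4 TPM in non-mutants at 16 dpp, and at 8 dpp it was not lower in mutants (4.77–8.98 against 1.82–6.10 TPM). At 12 dpp the litter numbered 13 went against its labels, with 19.2 TPM in the library labelled Prdm9-/- replicate 5 and 9.16 TPM in the one labelled Prdm9+/- replicate 4. Without that litter no count of called steroid genes moved. Lastly, in bulk RNA fewer cells of a type and less RNA per cell cannot be told apart.

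The regions before 3 of the genes are shown first, because 2 of them are the neighbouring HSD3B genes that took different courses with age and the third is Insl3, which rose in mutants. RefSeq (GRCm38.p6) gave windows of 250 bases before to 50 after a start site for 7 of the 10 genes. The bases printed lie before the gene body, 5′ to 3′ on the coding strand, at chr3:98859795-98860044 (minus strand) for Hsd3b1, chr3:98814444-98814693 (minus strand) for Hsd3b6 and chr8:71689002-71689213 (plus strand) for Insl3. Capitals mark matches on either strand to motifs of GATA factors, searched as AGATAA and, for the variant motif, as TGATAA. They also mark those of NR5A1, the orphan receptor that drives steroid enzyme genes, searched as CAAGGTC and, for the variant motif, as CAAGGCC.
Hsd3b1: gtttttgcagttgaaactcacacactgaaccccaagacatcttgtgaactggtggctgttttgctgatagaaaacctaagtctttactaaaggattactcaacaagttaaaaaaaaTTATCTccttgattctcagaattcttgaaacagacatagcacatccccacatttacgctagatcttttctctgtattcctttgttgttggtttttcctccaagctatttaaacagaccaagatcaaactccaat
Hsd3b6: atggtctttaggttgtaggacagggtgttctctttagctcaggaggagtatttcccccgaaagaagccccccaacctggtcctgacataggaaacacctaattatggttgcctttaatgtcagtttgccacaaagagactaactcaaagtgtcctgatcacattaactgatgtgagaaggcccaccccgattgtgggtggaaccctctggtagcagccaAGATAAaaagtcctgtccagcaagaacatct
Insl3: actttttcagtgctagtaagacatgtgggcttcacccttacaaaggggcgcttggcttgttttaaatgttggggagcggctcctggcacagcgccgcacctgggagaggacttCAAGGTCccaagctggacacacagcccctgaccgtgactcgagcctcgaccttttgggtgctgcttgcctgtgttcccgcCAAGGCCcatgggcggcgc

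Each HSD3B gene held 1 GATA match, from -134 to -129 before the start of Hsd3b1 and from -31 to -26 before that of Hsd3b6. Such a match stood in 18.6% of the 32851 promoter windows of the same length. Insl3 held 2 NR5A1 matches, from -137 to -131 and from -57 to -51, and the only other one among these genes lay in a window of Cyp19a1. Of all windows 9.88% held that motif. These are matches of letters and nothing was measured at them. Positions count from the RefSeq start site, which for Insl3 lies inside the gene body. The 250 bases before that site end at chr8:71689251, but the printed Insl3 stretch stops at chr8:71689213. Its matches thus lie nearer to the end of the printed bases than their positions say. Hsd3b6 (chr3:98805504-98814443) and Hsd3b1 (chr3:98852194-98859794) lie 37751 bp apart on the same strand in mm10. Of the 1801 distinct stretches of 50 bases in Hsd3b6 transcripts, 38 (2.11%) occur exactly in Hsd3b1, so reads from those stretches cannot be assigned to 1 gene.

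Hsd17b3 (chr13:64058266-64089230), the main testosterone-forming HSD17B, fell 17.2-fold in non-mutants and 17.9-fold in mutants from 8 to 16 dpp, by group means. In non-mutants at 8 dpp its level was 164, 154 and 149 TPM in Prdm9+/+ and 174 and 119 TPM in Prdm9+/-. At 12 dpp it was 12.6 TPM in the Prdm9+/+ library and 21.4, 9.08, 42.8 and 24.5 TPM in Prdm9+/-, and at 16 dpp 8.61 and 8.01 TPM in Prdm9+/+ and 9.02, 9.74 and 8.94 TPM in Prdm9+/-. The 8 dpp libraries all stood above those of both later ages, while 12 and 16 dpp overlapped through 1 library. The mutants followed the same course, with 75.4, 201, 190, 231 and 144 TPM at 8 dpp, then 16.9, 13.9, 16.96, 41.3 and 19.3 TPM, and at last 9.28, 9.08, 8.95, 9.72 and 9.91 TPM. In mutants no 2 ages overlapped. By 16 dpp the level was nearly the same in all 10 libraries. The coefficient of variation was 6.28%, against 27.2% at 8 dpp and 52.6% at 12 dpp.

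On the scale of log2(TPM + 1), Hsd17b3 in non-mutants fell by 2.91 (SE 0.291) from 8 to 12 dpp and by 1.04 from 12 to 16 dpp, with adjusted p = 2.92e-08 and 0.0103 in limma. In mutants the same steps were -2.91 and -1.02, with adjusted p = 0.0195 for the later step. The later step rested partly on litter 12, whose 2 mates held the highest levels at 12 dpp. Without the Prdm9+/- mate the non-mutant step was -0.76 (limma adjusted p = 0.0506) and without the mutant mate the mutant step was -0.77 (adjusted p = 0.0872).

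Hsd17b1 (chr11:101078411-101080527), a dehydrogenase that also acts on estrogens, moved in parallel at a lower level. In non-mutants it stood at 70.9, 57.6, 68.2, 66.2 and 43.8 TPM at 8 dpp, at 7.51, 7.54, 8.16, 17.7 and 12.3 TPM at 12 dpp and at 2.82, 3.30, 3.57, 3.84 and 2.67 TPM at 16 dpp. The 3 ages did not overlap. In mutants it ran from 24.6 to 106 TPM at 8 dpp, from 6.01 to 28.6 TPM at 12 dpp and from 2.66 to 5.06 TPM at 16 dpp. In mutants the lowest library of 8 dpp was below the highest of 12 dpp, and 16 dpp stood apart. Over both steps Hsd17b1 changed by -3.87 in non-mutants and -3.93 in mutants on the log2 scale, with limma adjusted p = 6.14e-11 in non-mutants. Hsd17b3 was set against Hsd17b1, with a ratio of 1.78 to 3.06 at 8 dpp, 0.996 to 2.84 at 12 dpp and 1.96 to 3.41 at 16 dpp, so the pair kept a similar proportion at the first and last age while both fell. Their log2 levels had a Pearson correlation of 0.98 over the 30 libraries, given as a description because both follow age. The transcripts of the 2 genes share none of their 50-base stretches.

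Hsd3b6, the HSD3B form of adult Leydig cells, went the other way. At 8 dpp all 10 libraries were between 0.11 and 0.43 TPM, near the bottom of what the table records. At 12 dpp the non-mutants reached 6.01, 11.2, 6.82, 3.12 and 5.01 TPM and the mutants 11.4, 9.65, 8.73, 1.04 and 6.14 TPM. At 16 dpp the non-mutants held 25.3 and 33.6 TPM (Prdm9+/+) and 11.8, 23.6 and 10.7 TPM (Prdm9+/-), and the mutants 26.6, 50.6, 45.2, 32.7 and 52.3 TPM. The mutant ages did not overlap, and the non-mutant ages of 12 and 16 dpp did so narrowly. Hsd3b6 entered the test only through its 12 and 16 dpp libraries, so that it differed from 8 dpp follows in part from the filter on low values. In non-mutants the log2 difference was 2.45 (SE 0.351) from 8 to 12 dpp and 1.53 from 12 to 16 dpp, with limma adjusted p = 4.77e-06 and 0.00206. Over 42 alternatives the later step in non-mutants ran from 1.15 to 2.10, and its call was lost in 3 of them. In mutants the steps were 2.43 and 2.53, with adjusted p = 1.39e-05 for the later one. Adding 1 to each TPM understates the first of these steps.

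**Figure D1:**
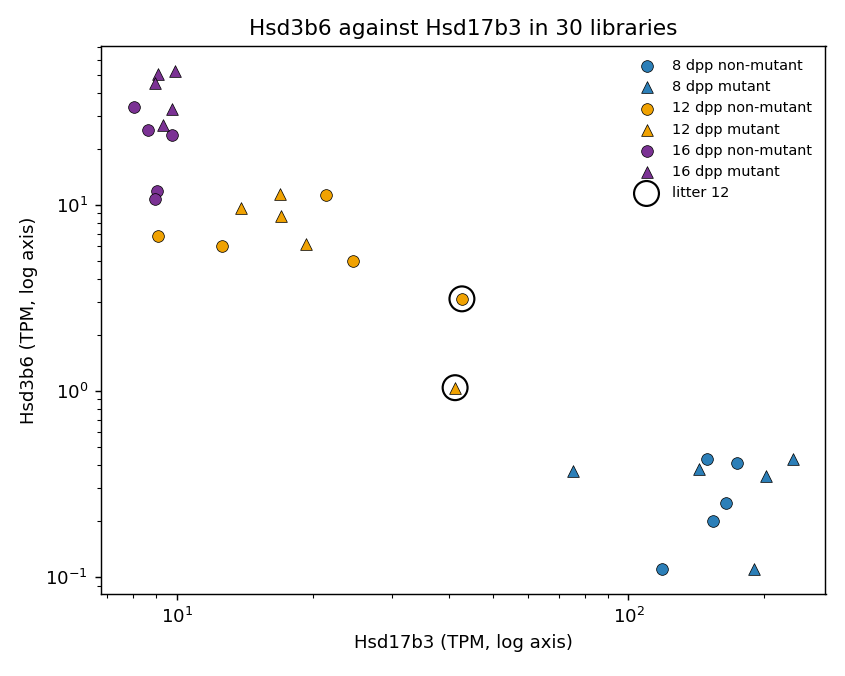
TPM of Hsd3b6 (vertical, log axis) against TPM of Hsd17b3 (horizontal, log axis) in the 30 libraries, coloured by age, with circles for non-mutants and triangles for mutants; rings mark the 2 mates of litter 12. The 8 dpp libraries lie at the lower right with at most 0.43 TPM of Hsd3b6, and the 16 dpp libraries at the upper left with at most 9.91 TPM of Hsd17b3.

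The ratio of Hsd17b3 to Hsd3b6 put the 2 genes on 1 scale. It ran from 204 to 1724 at 8 dpp (median 556), from 1.33 to 39.7 at 12 dpp (median 2.02) and from 0.180 to 0.837 at 16 dpp (median 0.319). The 8 dpp ratios divide by Hsd3b6 at 0.11–0.43 TPM, near the lowest values listed, so their size is uncertain. The highest, 1724, divides by 0.11 TPM in mutant replicate 3. No age overlapped another, and at 16 dpp Hsd3b6 was the more abundant of the pair in all 10 libraries. The 2 highest ratios at 12 dpp, 39.7 and 13.7, came from the mates of litter 12, which also held the highest Hsd17b1 of their age. That litter was thus on the 8 dpp side of its age group for all 3 genes in both genotypes, as the rings in the plot of Hsd3b6 against Hsd17b3 show.

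Hsd3b1, the HSD3B form of both fetal and adult Leydig cells, had no called change beside the rise of its neighbour. Its median was 85.5 TPM at 8 dpp (57.3–133), 67.6 TPM at 12 dpp (27.9–139) and 83.1 TPM at 16 dpp (36.7–149), and the ages overlapped widely. Hsd3b6 thereby made up 0.0825–0.711% of the summed TPM of both genes at 8 dpp, 1.28–19.7% at 12 dpp and 19.4–35.1% at 16 dpp. The family members Hsd3b2, Hsd3b3, Hsd3b4 and Hsd3b5 were at or below 0.25 TPM in every library.

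The genes at the head of the pathway stayed present at all 3 ages. Cyp11a1 (chr9:58006411-58027023) had medians of 46.6, 42.6 and 56.4 TPM at 8, 12 and 16 dpp, and Star (chr8:25806555-25815982) of 23.4, 20.4 and 17.1 TPM. Neither passed the test at any age step in either genotype class. The spread of Cyp11a1 widened, from 40.6–87.0 TPM at 8 dpp to 14.6–89.7 TPM at 16 dpp. An exon of Cyp11a1 overlaps the predicted gene Gm17322, which stood at 0.86–4.40 TPM.

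Cyp17a1 (chr19:46667165-46673172), whose product performs the hydroxylase and lyase steps, varied more between the 10 libraries of 16 dpp than the other tested genes, with a coefficient of variation of 133%. At 16 dpp the non-mutants held 50.9, 8.45, 1.68, 39.3 and 2.03 TPM and the mutants 2.68, 18.3, 12.6, 110 and 9.91 TPM. At 8 dpp the non-mutants held 46.2, 72.4, 93.7, 16.5 and 20.6 TPM and the mutants 50.4, 28.1, 111, 50.6 and 34.4 TPM. The ages overlapped, but 3 of 5 libraries of each class at 16 dpp were below the lowest library of 8 dpp. In non-mutants the difference from 8 to 16 dpp was -1.92 on the log2 scale (SE 0.793, limma adjusted p = 0.0443), and in mutants the difference was -1.61 (adjusted p = 0.0986). The non-mutant call was lost in 12 of 42 alternatives, with adjusted p up to 0.28, among them leaving out any one of the 3 Prdm9+/+ libraries of 8 dpp, Prdm9+/+ replicate 2 of 16 dpp or Prdm9+/- replicate 1 or 3 of 16 dpp. It was also lost with litter as a random effect (-1.83, limma adjusted p = 0.0536). At 16 dpp both mates of litter 2 (1.68 and 2.68 TPM) were lowest in their groups, and the mutant of litter 6 (110 TPM) had a mate at 39.3 TPM. The mates of litter 4 differed, with 50.9 TPM in the non-mutant and 18.3 TPM in the mutant.

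Lhcgr (chr17:88716481-88791990) was low throughout, with 1.57–5.63 TPM at 8 dpp and 2.27–6.03 TPM at 12 dpp. In mutants its level at 16 dpp was 5.25, 7.94, 6.09, 6.86 and 6.58 TPM, against 4.12, 4.49, 3.61, 3.31 and 2.69 TPM in non-mutants. Every mutant was above every non-mutant at that age, but the difference was not called (limma adjusted p = 0.0739). How many of all rows keep 2 groups apart in this way was not counted, for genotypes or for ages. From 8 to 16 dpp Lhcgr rose by 0.87 on the log2 scale in mutants (SE 0.215, limma adjusted p = 0.00129) and did not pass the test in non-mutants (0.20).

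Insl3 (chr8:71689214-71690575) also rose with age in mutants. Their levels were 54.4, 45.5, 90.5, 56.4 and 49.0 TPM at 8 dpp, 44.2, 79.8, 43.8, 44.5 and 27.2 TPM at 12 dpp and 68.5, 127, 206, 90.6 and 133 TPM at 16 dpp. At 16 dpp the mutant libraries were above those of 12 dpp except that the lowest overlapped the highest. The log2 difference was 1.35 from 12 to 16 dpp and 1.01 from 8 to 16 dpp, with limma adjusted p = 0.00614 and 0.0121. Without mutant replicate 3 of 16 dpp the longer difference was 0.81 (adjusted p = 0.0507). Non-mutants at 16 dpp held 59.2 and 173 TPM (Prdm9+/+) and 33.9, 66.6 and 30.3 TPM (Prdm9+/-), and no step was called in them. Insl3 lies within Jak3 and overlaps an exon of it, and Jak3 itself stood at 0.64–2.24 TPM.

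Cyp19a1 (chr9:54165937-54268110), the aromatase, was listed at 0 in most libraries and was not tested. At 8 dpp 1 library, Prdm9+/+ replicate 1, held 0.16 TPM, and at 12 dpp 1 library, Prdm9-/- replicate 1, held 0.05 TPM. At 16 dpp the non-mutants were listed at 0.06, 0.06, 0.06, 0.20 and 0.30 TPM and the mutants at 0.08, 0, 0.16, 0 and 0.21 TPM. No fold is given against values at 0.

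**Figure D2:**
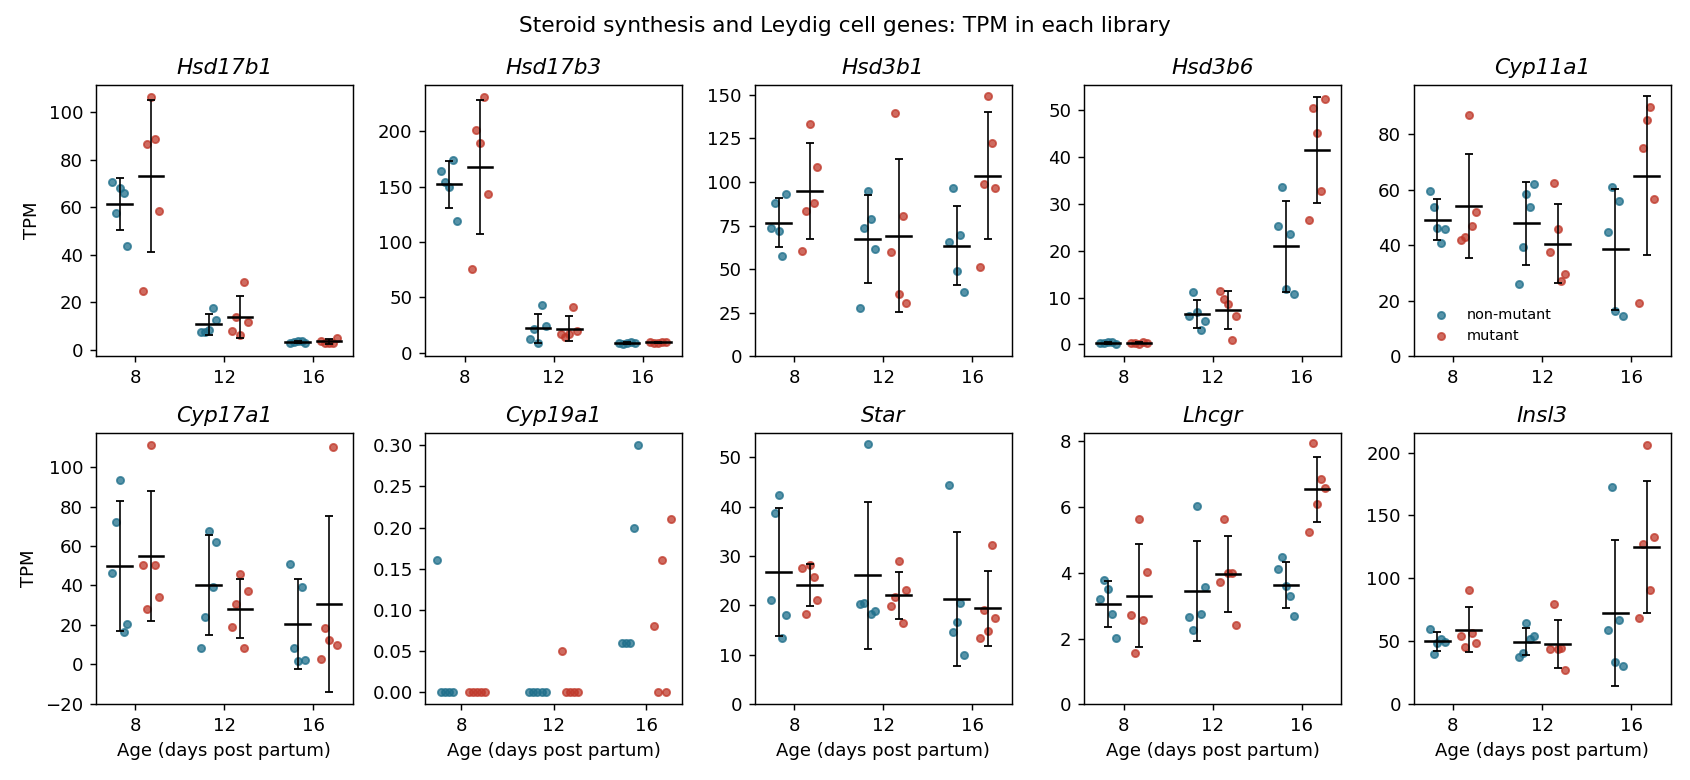
TPM (vertical, a scale for each gene) of the 10 genes at 8, 12 and 16 dpp, each point 1 library, blue for non-mutants and red for mutants; bars give the mean and SD of 5 libraries, which are left out for Cyp19a1, and an SD that exceeds its mean reaches below 0. Hsd17b1 and Hsd17b3 drop after 8 dpp, Hsd3b6 climbs, and Cyp17a1 spreads from 1.68 to 110 TPM at 16 dpp.

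Ordered by mean level, the list was led at 8 dpp by Hsd17b3 (160 TPM over 10 libraries, SD 43.6), followed by Hsd3b1 (85.7 TPM, SD 22.8) and Hsd17b1 (67.2 TPM, SD 23.4). Insl3, Cyp17a1 and Cyp11a1 came next at 54.5, 52.4 and 51.7 TPM, which do not differ beyond their spread, and then Star (25.5 TPM), Lhcgr (3.18 TPM) and Hsd3b6 (0.304 TPM). At 16 dpp Insl3 (98.8 TPM, SD 59.1) and Hsd3b1 (83.6 TPM, SD 35.6) stood first, within each other's spread. Cyp11a1 followed at 51.9 TPM, and Hsd3b6 (31.2 TPM, SD 14.7), Cyp17a1 (25.6 TPM) and Star (20.3 TPM) came next. Their order differed between the classes, with Hsd3b6 at 41.5 TPM and Star at 19.4 TPM in mutants and both near the same level in non-mutants (20.99 and 21.26 TPM). Hsd17b3 (9.13 TPM), Lhcgr (5.09 TPM) and Hsd17b1 (3.34 TPM) came last of the tested genes.

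Counted together, 9 of the 10 genes were tested among 20021 rows, in a single limma fit with Benjamini-Hochberg adjustment. From 8 to 12 dpp 3 of 9 were called in non-mutants, Hsd3b6 upwards and the HSD17B pair downwards, where 32.5% of all rows were called. From 12 to 16 dpp the same 3 genes were called in non-mutants against 21.8% of rows, and over the whole interval these 3 and Cyp17a1 against 51.3%. In mutants the 3 genes were called from 8 to 12 dpp (29.7% of rows), with Insl3 added from 12 to 16 dpp (12.1%) and Lhcgr and Insl3 from 8 to 16 dpp (47.1%). Over the whole interval the share of these genes that was called was near that of all rows in both classes. These counts include Hsd3b6, which passed the filter only through its 12 and 16 dpp libraries. Its calls from 8 dpp thus follow in part from the filter.

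**Figure D3:**
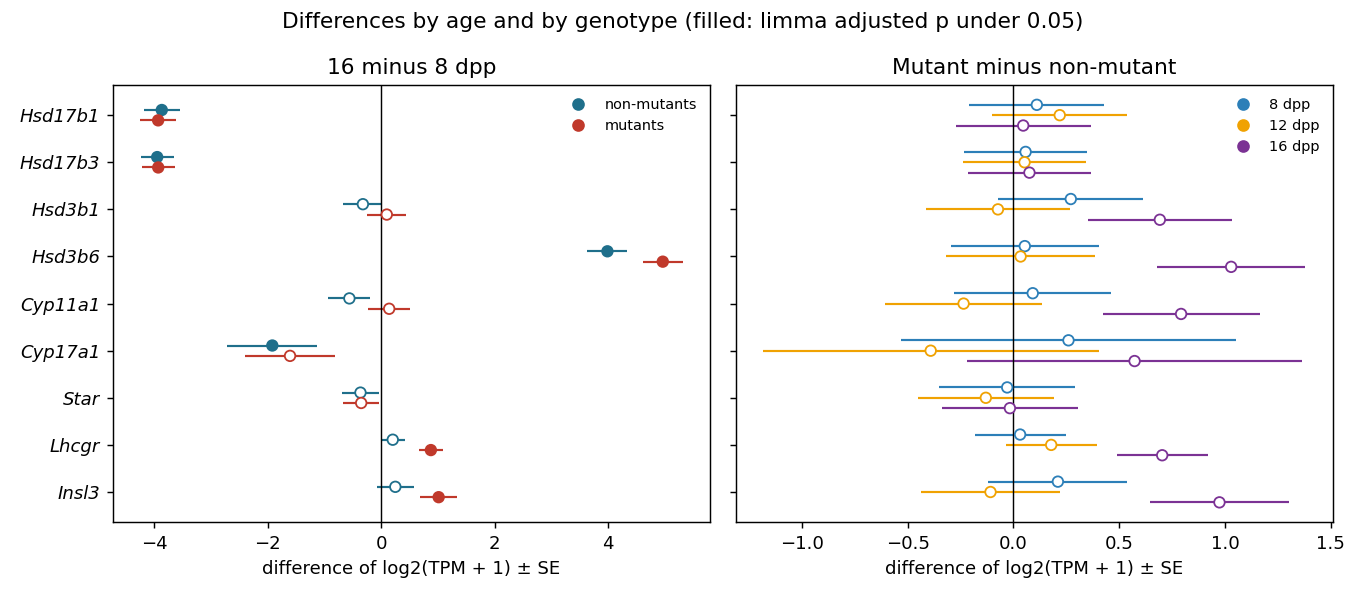
Differences of log2(TPM + 1) with SE for the 9 tested genes: left, 16 minus 8 dpp in non-mutants and mutants; right, mutant minus non-mutant at each age; filled points have a limma adjusted p under 0.05. The HSD17B pair lies near -3.9 and Hsd3b6 at 3.98 and 4.96 on the left, and no point on the right is filled.

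Between Prdm9 mutants and non-mutants none of the 9 tested genes passed the threshold at any age. At 8 dpp 0 of 9 were called, as were 0.0% of all rows (417 rows had an unadjusted p under 0.05 in limma), and at 12 dpp again 0 of 9 and 0.0% of rows (225 rows unadjusted). At 16 dpp 0 of 9 were called where 3.26% of rows were, 102 upwards and 551 downwards. The mutant minus non-mutant difference of the HSD17B pair stayed within 0.22 of 0 on the log2 scale at all 3 ages. The median difference at 16 dpp was 0.69 over the 9 genes and 0.07 over all rows.

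At 16 dpp 5 of the genes were nevertheless higher in the mutant in each of the 5 litters that held a mutant and a non-mutant. Between litter mates the ratio of mutant to non-mutant TPM was 1.34 to 4.90 for Hsd3b6 (median 2.002), 1.19 to 4.39 for Insl3 (median 2.02) and 1.36 to 2.45 for Lhcgr (median 1.93). It was 1.16 to 3.89 for Cyp11a1 (median 1.60) and 1.05 to 2.64 for Hsd3b1 (median 1.55). Hsd17b3 was nearly equal in mates, with ratios from 0.998 to 1.12, Hsd17b1 was higher in the mutant in 2 of 5 litters, Star in 3 and Cyp17a1 in 4. Of all rows, 15.2% were higher in the mutant of every litter.

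**Figure D4:**
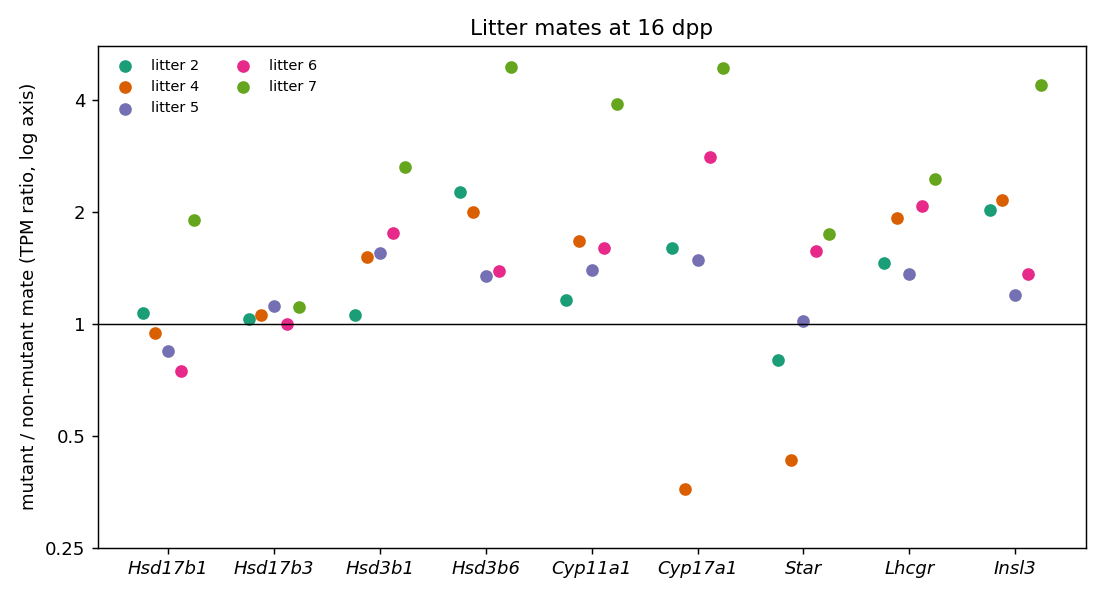
Ratio of TPM in the mutant to TPM in its non-mutant litter mate at 16 dpp (vertical, log axis) for the 9 tested genes, each point 1 litter. All 5 points lie above 1 for Hsd3b1, Hsd3b6, Cyp11a1, Lhcgr and Insl3, and litter 7 gives the highest of each of these.

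The fitted differences at 16 dpp were 1.03 for Hsd3b6 (SE 0.351, limma adjusted p = 0.134), 0.97 for Insl3 (SE 0.328, adjusted p = 0.126) and 0.70 for Lhcgr (SE 0.215, adjusted p = 0.0739). With litter mates as a block the adjusted p of Lhcgr was 0.0368, and with litter as a random effect those of Hsd3b6, Insl3 and Lhcgr were 0.0254, 0.0276 and 0.0249. These differences moved with the control genotype. Against Prdm9+/+ alone, 2 libraries, the difference of Insl3 was 0.20 and that of Hsd3b6 0.45, and against Prdm9+/- alone they were 1.49 and 1.42, with limma adjusted p = 0.00647 for Insl3. Without the Prdm9+/+ library at 173 TPM the difference of Insl3 was 1.36 with adjusted p = 0.00296. At 12 dpp each of the 5 genes was higher in the mutant in some litters and lower in others.

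Whether age steps differed between genotypes was tested directly. None of the 9 genes passed for the step from 8 to 12 dpp (0.0% of rows, 367 unadjusted in limma), from 12 to 16 dpp (1.35% of rows) or from 8 to 16 dpp (1.47%). The lowest adjusted p in limma was 0.538, for Insl3 from 12 to 16 dpp, so a rise called in mutants and not in non-mutants is not shown to differ between them. Prdm9+/- against Prdm9+/+, with age as a factor, gave 0 of 9 genes and 0.0% of 18668 rows (1972 rows unadjusted in limma). The differences ran from -0.73 for Cyp17a1 to 0.19 for Hsd17b3.

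Among the other genes of the pathway more fell than rose with age in non-mutants. Of 19 genes of cholesterol synthesis, 12 fell and 1 rose from 8 to 16 dpp in non-mutants (limma). Those that fell included Fdps (-0.58), which makes farnesyl pyrophosphate, the sterol demethylase Cyp51 (-0.77) and the epoxidase Sqle (-0.41), and the sterol isomerase Ebp rose (0.43). In mutants the counts were again 12 and 1. Of 18 genes of cholesterol uptake, transfer and electron supply, 6 fell and 3 rose in non-mutants, while 3 fell and 8 rose in mutants. The cholesterol-esterifying enzyme Soat1 rose by 0.49 in non-mutants and 0.72 in mutants. For scale, 4887 of the 20021 rows fell and 5378 rose in non-mutants, with a median of 0.02, against medians of -0.22 and -0.12 for these lists. In mutants 4067 rows fell and 5357 rose, with a median of 0.06 over all rows and of -0.36 and 0.04 for the lists.

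Among 11 tested further steroid-converting enzymes 8 fell and 2 rose in non-mutants, with a median of -0.47, where 51.3% of all rows were called. Those that fell included Hsd11b2, which inactivates glucocorticoids (-1.81 on the log2 scale), Hsd17b12 (-0.60), Cyp7b1 (-1.46) and Akr1c14 (-1.28). Srd5a1, the 5-alpha-reductase that turns testosterone into dihydrotestosterone, rose by 1.01 in non-mutants and 1.23 in mutants, with limma adjusted p = 5.27e-06 and 2.92e-07. Of 17 tested regulators and receptors, 8 fell and 2 rose in non-mutants (median -0.37), a called share near that of all rows. Among those that fell were the immediate early receptor Nr4a1 (-0.97), Gata4 (-0.97), Creb1 (-0.71) and the estrogen receptor Esr2 (-0.90). Nr0b1, a repressor of NR5A1 targets, rose by 1.16 and 1.44 (limma adjusted p = 9.91e-08 and 2.65e-09).

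Most other Leydig cell genes fell. Of 11 tested, 8 fell and 1 rose from 8 to 16 dpp in non-mutants (median -0.80, 51.3% of all rows called). Those that fell included the fetal Leydig cell marker Thbs2 (-2.04 on the log2 scale), the progenitor gene Dlk1 (-2.67) and the prostaglandin D synthase Ptgds (-2.70). In mutants the same number fell and Vcam1 (0.84), Agt (0.77) and Kit (0.65) rose, where 47.1% of all rows were called. At 16 dpp none of the 11 was called between genotypes, and the median difference was 0.34. In every litter 5 of 11 were higher in the mutant, against 15.2% of all rows. Of this list Mc2r, Crhr1, Ptgdr and Cyp2e1 were too low to test, with at most 1.01 TPM, and Kit also stands in the germ cell list. Aldh1a1 and Inha were the highest of the list, with means of 1364 and 884 TPM in non-mutants at 8 dpp. Which cells the transcripts of this list came from was not tested.

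Markers of other cells moved alongside. From 8 to 16 dpp 51.3% of all rows were called in non-mutants and 47.1% in mutants. Counts near these shares are not particular to a list. All 12 stroma and progenitor markers fell from 8 to 16 dpp in non-mutants and 10 of 12 in mutants (limma, median -1.15 in non-mutants). Their summed level ran from 1354–2042 TPM at 8 dpp to 617–874 TPM at 16 dpp in non-mutants. The macrophage markers went up, 8 of 10 in each genotype class, from 45.7–60.6 to 109–219 TPM in non-mutants. Of 20 Sertoli cell markers 12 fell and 5 rose in non-mutants, among them the immature-stage genes Amh (-2.47), Gdnf (-2.06) and Dhh (-1.03) downwards and the androgen-responsive Rhox5 upwards (3.82), and their sum was 10162–12400 TPM at 8 dpp and 10662–13130 TPM at 16 dpp. In mutants 7 of the 20 fell and 7 rose, with a median of -0.18 against -0.42 in non-mutants. Of 8 endothelial markers 2 fell in non-mutants, and none of the 8 peritubular and 5 erythroid markers was called.

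Between genotypes at 16 dpp none of the stroma, macrophage or Sertoli markers was called. The stroma sum was 617–874 TPM in non-mutants and 929–1166 TPM in mutants. Of its genes 9 of 12 were higher in the mutant of every litter, where 15.2% of all rows were. The macrophage sum was 109–219 and 148–283 TPM, with 7 of 10 genes higher in the mutant of every litter. The Sertoli sum was 10662–13130 and 11304–13017 TPM, with 3 of 20 genes, near the share of all rows. The germ cell sum was 1494–2447 TPM in non-mutants and 1279–1779 TPM in mutants, and Ldhc (-5.21) and Piwil1 (-3.76), genes of later spermatocytes, and Ddx4 (-0.61) were called lower. No gene of these 4 lists was at 0 in any library. None of the 5 erythroid markers was called either, but their median difference was 0.97, their sum was 94.3–463 TPM in non-mutants and 191–720 TPM in mutants, and 3 of the 5 were higher in the mutant of every litter. The part of any of these cell types in the levels of the steroid genes was not tested. Genes of the Sertoli list fell or rose with age, so a fit with the list mean as covariate cannot tell Sertoli content from age.

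In that fit 3 genes were still called from 8 to 12 dpp, but none from 12 to 16 dpp in non-mutants and 1, Hsd3b6, in mutants. The share of all rows called in that fit is not given here, so the losses are not shown to be particular to these genes. The later step in non-mutants was -1.19 for Hsd17b1, -1.12 for Hsd17b3 and 1.49 for Hsd3b6 (limma adjusted p = 0.0983, 0.0931 and 0.0623), against -1.39, -1.04 and 1.53 without the covariate. In mutants it was -1.39 for Hsd17b1, -1.08 for Hsd17b3 and 0.95 for Insl3 (limma adjusted p = 0.0597, 0.114 and 0.211), against -1.56, -1.02 and 1.35.

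Rows with the most similar course over the 30 libraries were found by Pearson correlation of log2(TPM + 1), as a description with age shared by all points. Hsd17b1 was closest to Cables1 (0.98), Serpine2, Epdr1 and Heph, with Hsd17b3 the fifth, and Hsd17b3 to Tmem98 (0.98), Hsd17b1, Dsc2, Aqp12 and Nnat. Serpine2 went from a mean of 257 TPM at 8 dpp to 22.4 TPM at 16 dpp. Hsd3b6 was closest to Slc9a2 (0.97), Lipg, Lamtor3, Lactb and Tsx, and Tsx climbed from 2.65 to 125 TPM over the same ages. The genes without a steady age course had weaker neighbours. Cyp11a1 was closest to Aqp2 (0.86), Hao2 and Ephx1 and had Hsd3b1 as the fifth (0.75), Cyp17a1 was closest to Star (0.77), and Insl3 to Ephx1 (0.89), with Vcam1 the fourth (0.85).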

How the data were processed

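The table deposited by the authors gives 30 libraries in TPM, each labelled as a separate replicate. The submitters' processing notes name Bowtie 1.0.0, RSEM 1.2.8 and mm10 (GRCm38), with no role or order. Whether strand was used is not given in the sources used here, so overlapping genes are uncertain. TPM keeps no depth, so no counting interval is given, and 3.23–3.95% of each library's TPM lies outside the table. Symbols and positions came from GENCODE M21 (37709 of 38906 Ensembl rows matched).

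limma-trend (limma 3.58.1, R 4.3.3, tested on simulated data) was run on log2(TPM + 1) in 1 model of mutants and non-mutants at 3 ages. It used the 20021 rows with 5 or more libraries above 1 TPM. P-values were two-sided, and a call means a Benjamini-Hochberg adjusted p under 0.05, adjusted across the whole set of tested rows. The labels call the libraries replicates without naming animals, so p-values measure the spread between libraries. Heterozygotes were set against wild-type animals with age as a factor. Levels and ratios were computed in Python 3.11.15, and motifs were searched in RefSeq promoter windows.

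All 10 genes are named whatever they showed. For 6 of them the 5 most correlated named rows are given, and from each list up to 4 called genes with the smallest adjusted p, some of which are not reported here. Genes and lists were chosen with earlier results of these data known.

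Litters are nested in age. The litter numbers in the table's headers pair mutants with non-mutants. The deviations of mates from their group means had a median correlation of 0.22 over 17 mate pairs (0.0628–0.39, 13 of them over 0.1), against -0.0836 between litters. The alternatives were other pseudocounts, filters, scalings, control genotypes, a litter block, a Sertoli cell covariate and fits without each library or without a litter.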

Additional observations from a re-analysis of the deposited data

Results flagged for a closer look

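In 10 of 58 groups of 4 or more libraries 1 library stood far from the rest by the gap to its nearest neighbour. The rule flags about 1 in 20 groups of independent, normally distributed values. TPM need not be normal and several flags came from 1 library, so 10 of 58 is not shown to exceed chance. Mutant replicate 3 of 8 dpp was high for Cyp17a1 (111.08 TPM, the others 28.1–50.6), Insl3 (90.45 TPM, the others 45.5–56.4) and Cyp11a1 (87.04 TPM, the others 41.9–52.1), and low for Hsd3b6 (0.11 TPM, the others 0.35–0.43).

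Mutant replicate 4 of 12 dpp, from litter 12, held 41.29 TPM of Hsd17b3, above 13.9–19.3 TPM in the others. Mutant replicate 4 of 16 dpp held 110.04 TPM of Cyp17a1, above 2.68–18.3 TPM in the others, and Prdm9+/+ replicate 2 of 16 dpp held 172.89 TPM of Insl3, above 30.3–66.6 TPM in the other non-mutants. For Star, Prdm9+/- replicate 2 of 12 dpp held 52.67 TPM, above 18.2–20.6 TPM in the other non-mutants. Cyp19a1 was listed at 0.16 TPM in Prdm9+/+ replicate 1 of 8 dpp and at 0.05 TPM in mutant replicate 1 of 12 dpp, with all others of those groups at 0.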

How the results depend on the processing

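No called direction reversed. Of the 9 genes tested, 0 differed between genotypes at 16 dpp in the reported fit. That count became 1 (Lhcgr) with the litter-mate replicate block or with only the compared groups in the fit, 3 with litter as a random effect, 1 against Prdm9+/- alone (Insl3) and 1 without litter 12 (Hsd3b6, a choice made after its values were seen), and 0 to 1 without single libraries. The libraries whose removal gave 1 were mutant replicates 2 and 3 of 8 dpp and Prdm9+/- replicate 2 of 12 dpp (Lhcgr), mutant replicate 4 of 12 dpp (Hsd3b6) and Prdm9+/+ replicate 2 of 16 dpp (Insl3). From 12 to 16 dpp in non-mutants the 3 calls became 0 against Prdm9+/+ alone, where 12 dpp has 1 library assumed to vary like the other groups, and 0 with the Sertoli cell covariate. In mutants the 4 calls became 1 with that covariate. The cause of these changes was not tested. The share of all rows called in each alternative is not given here, so no changed count is shown to be particular to these genes. Of the 117 differences of single genes, all but 16 kept their side of the threshold in all alternatives. The litter block removed only the call of Cyp17a1 from 8 to 16 dpp in non-mutants (-1.83, adjusted p = 0.0536 with the random effect in limma). A fixed litter block was not run for age steps, since litters are nested in age, and no litter term was run for heterozygotes against wild-type animals, since too few litters held more than 1 such library. Depth is unknown, and Hsd3b6 at 8 dpp and Cyp19a1 lie near the lowest values listed.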
